A study of Mus musculus with 4 samples.

Results

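Foxa2 and Lif were examined as 2 loci in whole mouse uterus, from lists of intervals called after chromatin immunoprecipitation and sequencing (ChIP-seq). An interval belonged to Foxa2 if any of its bases fell in chromosome 2, 147770000 to 147970000, around a stated gene position of 147.87 Mb. It belonged to Lif if it touched chromosome 11, 4110000 to 4220000, around a stated position of 4.16 Mb. Within these loci, members were chosen by position. They numbered 7 of the 35977 intervals in the 4 lists, 5 of them at Foxa2 and 2 at Lif.

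Each list came from 1 library of female uterus. The adult libraries carried a single label for days 2.5 and 3.5 of pseudopregnancy (DOPP 2.5+3.5), in which ovarian hormones act on the uterus as in early pregnancy but no embryo is present, and the younger libraries came from postnatal day 12 (PD12). At each stage there was a list for FOXA2 and a list for POL2. The POL2 antibody recognises the phospho S2 form of the C-terminal repeat of RNA polymerase II. Strain, genotype, the number of animals pooled and the age of the adults in weeks are not given in the labels. With 1 library a group, no difference between the stages has a replicate check and no p-value is given.

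FOXA2 is a forkhead transcription factor that can bind nucleosomal DNA, and in the uterus it marks the epithelium of the glands. In mice it is needed for uterine glands to form after birth, and PD12 falls in the period when glands bud from the lumen. Lif encodes leukemia inhibitory factor, a cytokine of the interleukin 6 family that the glands secrete before implantation. It signals through the receptor chains LIFR and gp130 to STAT3, and mouse embryos do not implant in a uterus that lacks it. Polymerase phosphorylated on serine 2 is the elongating form, found along the bodies of genes being transcribed.

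In the adult, the stated position of Foxa2 lay in a domain of POL2, and its window held 4 FOXA2 intervals, all on the lower-coordinate side of that position and 1 of them inside the domain. Lif had POL2 domains nearby in the adult and no FOXA2 interval in its window at either stage. At PD12 neither locus had an interval of either antibody. The 7 members therefore came from the adult lists, 4 from FOXA2 and 3 from POL2.

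The lists differ in length, and read depth is unknown for all of them. The adult and PD12 FOXA2 lists held 10373 and 814 intervals, and the adult and PD12 POL2 lists held 14818 and 9972. A region missing from a list is described here as not listed, which is not evidence that the factor was absent. Because tissue was whole uterus, fewer cells with a protein and less of it per cell cannot be told apart, and an overlap of FOXA2 with POL2 does not place both in the same cells. Input DNA was not analysed here, and the labelled tissue could not be checked against markers in lists of positions.

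Positions are those of the files. The selection rule takes them as mm9, and the sources used here name no build. The gene positions are rounded to 0.01 Mb, so that each can be off by 5 kb either way, and no annotation of the files' build was used to say which exon or intron an interval covers. In the RefSeq annotation of GRCm38.p6, used for names and order alone, Foxa2 is on the minus strand. Its nearest coding neighbours there are Pax1 on the lower-coordinate side and Sstr4 on the higher, and the long noncoding RNA gene 9030622O22Rik comes next to it on the lower side. Lif is on the plus strand, after Castor1 and Osm, a related cytokine gene, and before Hormad2.

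The promoters of the 2 genes are shown because POL2 was listed at or near both, and because the forkhead letters in them can be read beside the FOXA2 lists. They are RefSeq sequences from GRCm38.p6, whose coordinates do not match those of the lists. Each run gives the 250 bases before an annotated start, 5′ to 3′ on the gene's own strand. Capitals mark TGTTT, the core of the forkhead motif, or its reverse complement AAACA. For Foxa2, which has 3 annotated starts in the table, the most upstream start (chr2:148046970-148047219, minus strand) and the most downstream one (chr2:148045465-148045714, minus strand) are given. For Lif, the table has 1 start (chr11:4257318-4257567, plus strand).
Foxa2 upstream start: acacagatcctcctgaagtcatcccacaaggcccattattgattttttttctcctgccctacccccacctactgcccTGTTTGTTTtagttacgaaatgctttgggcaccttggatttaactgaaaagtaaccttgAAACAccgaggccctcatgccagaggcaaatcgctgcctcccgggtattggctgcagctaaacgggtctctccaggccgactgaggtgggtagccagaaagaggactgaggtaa
Foxa2 downstream start: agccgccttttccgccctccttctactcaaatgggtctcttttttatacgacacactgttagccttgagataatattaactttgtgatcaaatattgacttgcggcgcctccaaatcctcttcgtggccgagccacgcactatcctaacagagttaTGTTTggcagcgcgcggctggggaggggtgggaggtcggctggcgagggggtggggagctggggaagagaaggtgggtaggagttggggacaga
Lif start: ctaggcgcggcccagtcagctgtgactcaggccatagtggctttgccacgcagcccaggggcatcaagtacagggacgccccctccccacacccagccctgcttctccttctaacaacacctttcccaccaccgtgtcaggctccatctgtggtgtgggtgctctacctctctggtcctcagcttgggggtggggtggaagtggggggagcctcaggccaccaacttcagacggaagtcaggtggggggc

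The longer forkhead motifs TGTTTAC and TGTTTGC, searched on both strands, were in none of the 4 promoter windows of Foxa2 and Lif. They were in 7.29% of the 32851 windows of this length in the table. The 5-letter core TGTTT, added after the sequences were seen, was found 3 times before the upstream Foxa2 start, where 2 copies share a base, once before the downstream start, and not before the middle Foxa2 start or before Lif. That core was in 46.4% of all windows. These matches describe the letters of 250 bases each. No listed interval could be placed on them, since the builds differ.

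At Foxa2, the adult FOXA2 list held 4 intervals and the PD12 FOXA2 list held 0. The 4 covered 2.8 kb of the window. All of them lay on the lower-coordinate side of the stated position, which is the 3′ side of a gene on the minus strand. For the innermost, the side turns within the 5 kb rounding of that position. Distances are from that position to the nearest edge of an interval.

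The nearest of them spanned chromosome 2, 147865677 to 147866518 (842 bp), with its near edge 3.48 kb from the stated position of Foxa2. It is within the rounding of that position, and with the position moved by 5 kb to either end the distance was 0.677 kb, with the interval then on the higher side, or 8.48 kb on the lower side. The next, at 147852028 to 147852776, was 749 bp wide and 17.2 kb away. No other adult FOXA2 interval was listed within 40.6 kb of the gene for any position within the rounding.

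Farther out lay an interval of 727 bp at 147823624 to 147824350, 45.6 kb away. The outermost member, of 486 bp, lay at 147787314 to 147787799, 82.2 kb away. From the outermost to the innermost, the gaps between neighbouring intervals at Foxa2 were 35.8, 27.7 and 12.9 kb. The median gap between neighbours over the whole adult FOXA2 list was 88.6 kb, with an interquartile range of 27.4 to 244.0 kb. The gaps at Foxa2 were shorter than the list's median, and the innermost was below its lower quartile. The window reaches 100 kb to the lower side, where all 4 intervals lay. Short gaps were thus largely fixed by that count and add nothing to it.

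The width of the Foxa2 members was larger nearer to the gene in this set of 4. That order did not continue beyond the window on the lower side. There the next widths were 389, 652, 575 and 790 bp, at 109.0, 112.0, 171.0 and 211.0 kb from the position. Of the adult FOXA2 list, 12.0% of intervals were narrower than the outermost member and 77.8% were narrower than the innermost. The list's median width was 685 bp, with an interquartile range of 560 to 821 bp, so the innermost was above the upper quartile and the outermost below the lower. Width is not a measure of binding strength, and the lists carry no height or score.

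**Figure D1:**
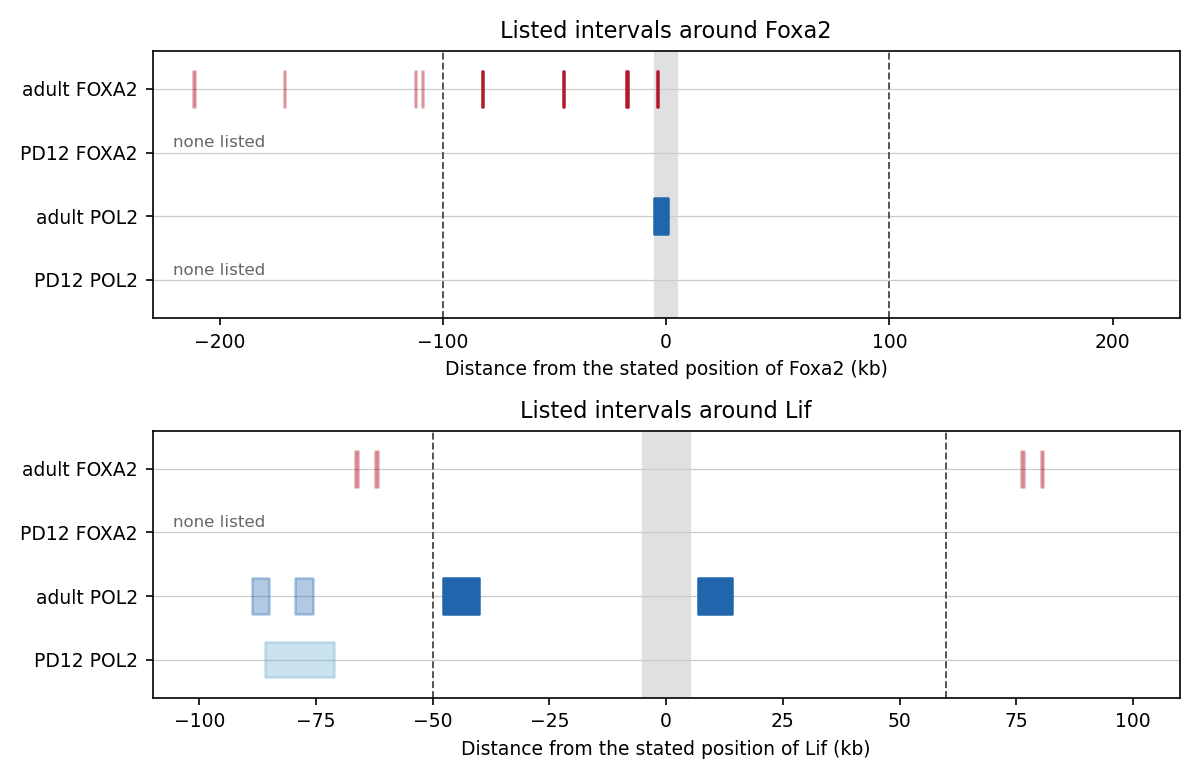
Intervals listed around Foxa2 (upper panel) and Lif (lower panel) for adult FOXA2, PD12 FOXA2, adult POL2 and PD12 POL2, by distance in kb from the stated gene position, with lower coordinates to the left. Dashed lines bound the selection windows, grey bands show the 5 kb rounding of the positions, full colour marks the 7 members and pale colour the intervals outside, and narrow intervals are drawn with a minimum line width. The 4 adult FOXA2 members are all to the left of the stated position of Foxa2, the innermost within its rounding, and the windows hold nothing from PD12.

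Just outside the window of Foxa2, the adult FOXA2 list had intervals of 389 and 652 bp on the lower side, 109.0 and 112.0 kb from the position, of which the nearer was 9.1 kb beyond the window. On the higher side the first adult FOXA2 interval was 364.0 kb from Foxa2, which left that side of the window without one. The nearest PD12 FOXA2 interval was 2.18 Mb away.

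Windows of 200 kb were laid side by side along each chromosome, from its first to its last listed interval, to give the background. Of 12789 such windows, 42.0% held at least 1 adult FOXA2 interval and 4.57% held 4 or more, as the window of Foxa2 did. The largest count in a window was 12. A PD12 FOXA2 interval was in 5.86% of windows, so the lack of one at Foxa2 was shared with most of the genome. From the centres of these windows, the median distance to the nearest PD12 FOXA2 interval was 1360.0 kb. Of the centres, 35.3% were farther from one than Foxa2 was. Foxa2 was chosen as a locus with earlier results known, and these shares only describe where its count falls.

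POL2 was listed once in the window of Foxa2, in the adult, and not at PD12. The adult domain ran from chromosome 2, 147864400 to 147870999, and was 6.6 kb wide. It contained the stated position of Foxa2, reaching 5.6 kb to the lower side and 0.999 kb to the higher side of it. If the true position is 5 kb higher than stated, the domain ends 4.0 kb short of it. Over the adult POL2 list the median width was 4800 bp, and 65.4% of domains were narrower than the one at Foxa2.

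This domain stood alone over a long stretch. The next adult POL2 domains were 0.958 Mb away on the lower side and 0.351 Mb on the higher side. The nearest PD12 POL2 domains were 0.959 Mb away on the lower side, where it overlapped the adult domain, and 0.363 Mb on the higher side. Of all 200 kb windows, 36.6% held an adult POL2 domain and 31.2% a PD12 one. The median gap between neighbours over the whole adult POL2 list was 19.2 kb, with an interquartile range of 3.8 to 86.2 kb. From the centres of those windows, the median distance to the nearest adult POL2 domain was 204.0 kb.

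The FOXA2 interval nearest to Foxa2 lay wholly inside the adult POL2 domain, beginning 1.28 kb after the domain's lower end and ending 4.48 kb before its upper end. It took up 12.8% of the domain. The other 3 FOXA2 members were outside POL2, with gaps of 11.6, 40.0 and 76.6 kb to the domain. Across the genome, 19.4% of adult FOXA2 intervals (exact 95% interval 18.6 to 20.2) overlapped an adult POL2 domain, so 1 of 4 at Foxa2 is near that share. In turn 12.5% of adult POL2 domains (11.9 to 13.0) held an adult FOXA2 interval.

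**Figure D2:**
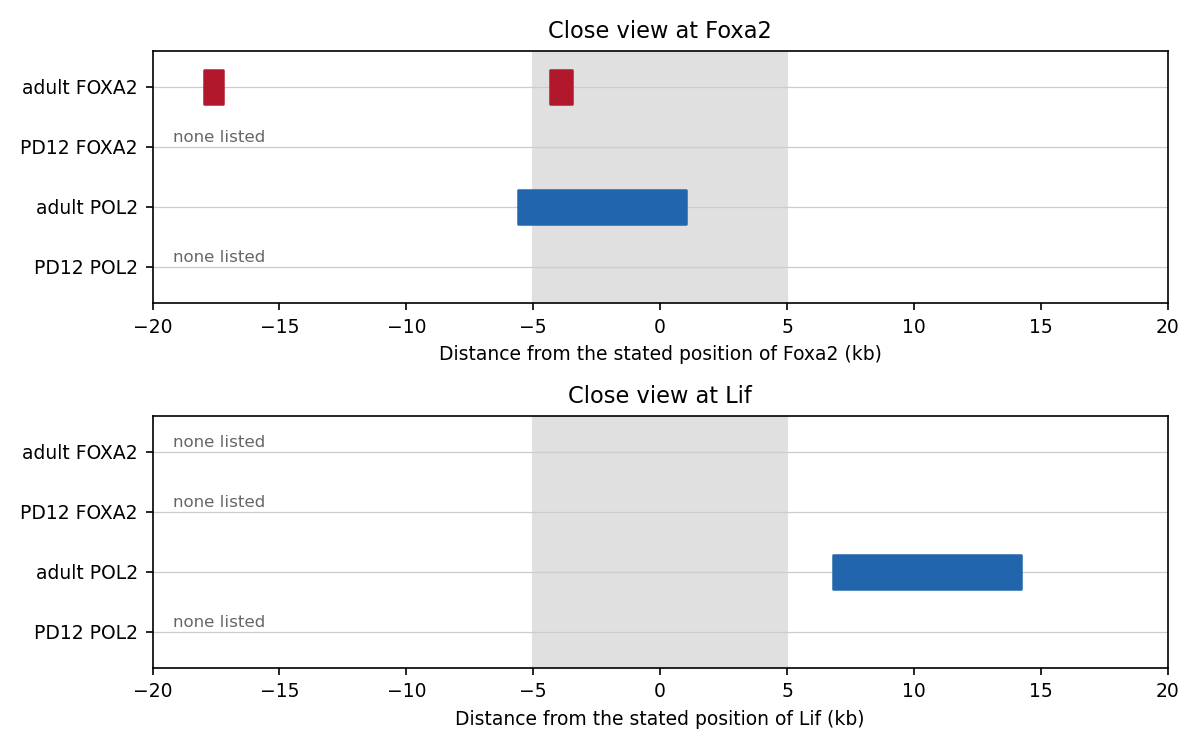
Close view of the 20 kb to either side of the stated positions of Foxa2 (upper panel) and Lif (lower panel), to scale, with distance in kb on the horizontal axis and a row for each of the 4 lists; grey bands show the 5 kb rounding of the positions. At Foxa2 the adult FOXA2 interval of 842 bp falls inside the adult POL2 domain of 6.6 kb, and at Lif the adult POL2 domain of 7400 bp has no FOXA2 interval beside it.

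None of the 5 Foxa2 members overlapped an interval of the same antibody at PD12. For FOXA2 this was the usual outcome, since 5.65% of adult intervals (5.21 to 6.11) overlapped a PD12 one. For POL2 it was the less common one, since a PD12 counterpart was listed for 54.4% of adult domains (53.6 to 55.2). Among adult domains of 6 to 8 kb, the width of those at Foxa2 and Lif, the share was 66.5% (64.5 to 68.4). That band was not planned and was set around the widths of the members. These 95% intervals cover counting error alone. The pattern of the Foxa2 window, with adult FOXA2 and adult POL2 listed and neither at PD12, was found in 3.93% of the 200 kb windows. The pattern was set by what this window listed, and those windows are not matched to a gene position, so the share is not a measure of rarity.

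At Lif the adult POL2 list held 2 domains, which covered 15.2 kb or 13.8% of the window, and the PD12 POL2 list held 0. The nearer ran from chromosome 11, 4166800 to 4174199, and was 7400 bp wide. It began 6.8 kb to the higher side of the stated position of Lif, the side to which a gene on the plus strand is read, and ended 14.2 kb from it. Within the rounding of the position, the distance to its near edge could be 1.8 to 11.8 kb. Whether it covers the body of Lif was not determined, for want of an annotation of the build.

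The other POL2 domain in the window of Lif, at 4112200 to 4119999, was 7800 bp wide and ended 40.0 kb to the lower side. In the GRCm38 order, Osm and Castor1 are the first coding genes on that side of Lif, and the domain was not assigned to either of them. The gap between the 2 domains was 46.8 kb. Both were wider than most of the adult POL2 list, of which 71.4% was narrower than the nearer domain and 73.8% narrower than the farther one.

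Beyond the window of Lif, POL2 was listed at both stages. On the lower side adult domains of 4000 and 3600 bp, the nearer ending 75.6 kb from Lif, overlapped a PD12 domain of 14800 bp at 4074000 to 4088799, which ended 71.2 kb from Lif. On the higher side the first domains of the adult and PD12 lists both began 211.0 kb from Lif, at 4371400. The domains next to Lif on either side were thus listed at both stages, whereas the 2 in its window were listed in the adult alone. A PD12 counterpart was listed for 54.4% of all adult POL2 domains and for 66.5% of those 6 to 8 kb wide. The contrast with the flanks was not tested.

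FOXA2 was not listed in the window of Lif at either stage. The nearest adult FOXA2 interval, of 626 bp at 4097687 to 4098312, lay 61.7 kb to the lower side and 11.7 kb beyond the window. On the higher side the nearest was an interval of 677 bp at 4236023 to 4236699, which lay 76.0 kb from Lif and 16.0 kb beyond the window. The nearest PD12 FOXA2 interval was 839.0 kb away.

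Of 23259 windows of 110 kb, 28.9% held an adult FOXA2 interval and 3.29% a PD12 one, so the window of Lif was like most of the genome in having neither. An adult POL2 domain was in 27.1% and a PD12 domain in 22.3% of them. Adult POL2 alone among the 4 lists, the pattern at Lif, was found in 3.55%. Taking the centre of each 110 kb window as a point, the median distance to the nearest adult FOXA2 interval was 137.0 kb, and 31.3% of centres were nearer to one than Lif was. The nearest adult FOXA2 interval was thus closer to Lif than to most of these points, though outside its window. The windows and points fall anywhere along the genome, at genes or not, so they are not matched to a gene position. The pattern of 3.55% was likewise set by what the window of Lif listed.

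**Figure D3:**
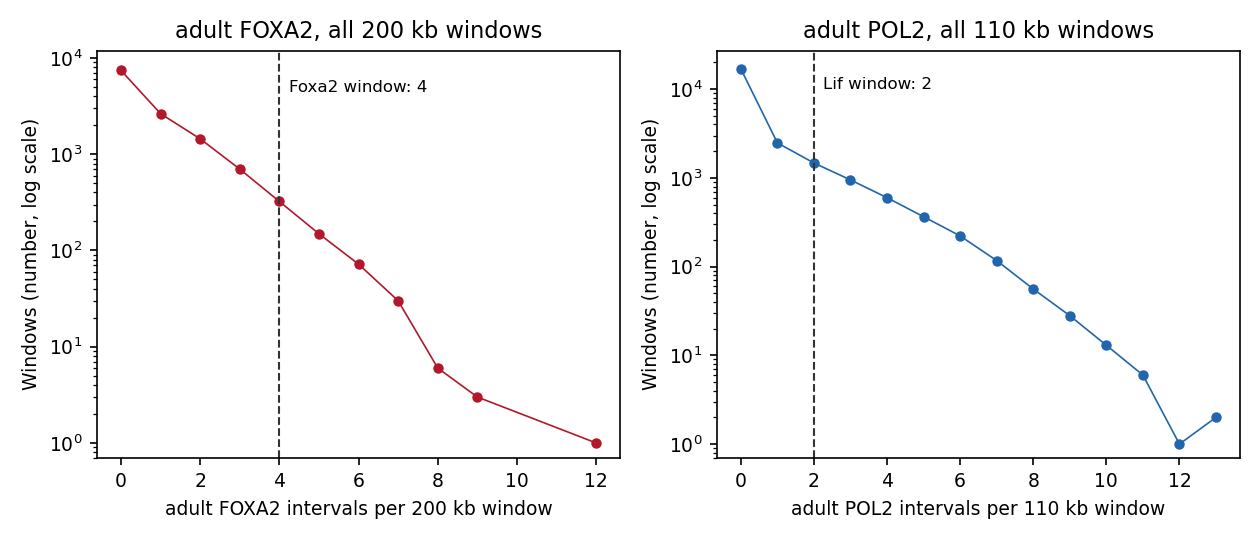
Number of windows along the genome (vertical axis, log scale) by the number of intervals they hold, for adult FOXA2 in 200 kb windows (left) and adult POL2 in 110 kb windows (right). The dashed lines mark the window of Foxa2, with 4 adult FOXA2 intervals, which 2.04% of windows exceeded, and the window of Lif, with 2 adult POL2 domains, which 10.1% exceeded.

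In the windows as set, the 2 loci had POL2 listed in the adult and not at PD12, and differed in FOXA2. Adult POL2 covered 6.6 kb at Foxa2 and 15.2 kb at Lif, in windows of 200 and 110 kb. Adult FOXA2 covered 2.8 kb at Foxa2 and none of the window at Lif. A window of 200% of the length at Lif, nearer in size to that of Foxa2, held 4 adult FOXA2 intervals and 1 PD12 POL2 domain. Of all 110 kb windows, 28.9% held adult FOXA2 and 22.3% held PD12 POL2, so each was missing from most windows. Measured from the stated positions, the nearest adult FOXA2 interval was 3.48 kb from Foxa2 and 61.7 kb from Lif. No test of this difference was possible with 2 loci and 1 library.

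**Figure D4:**
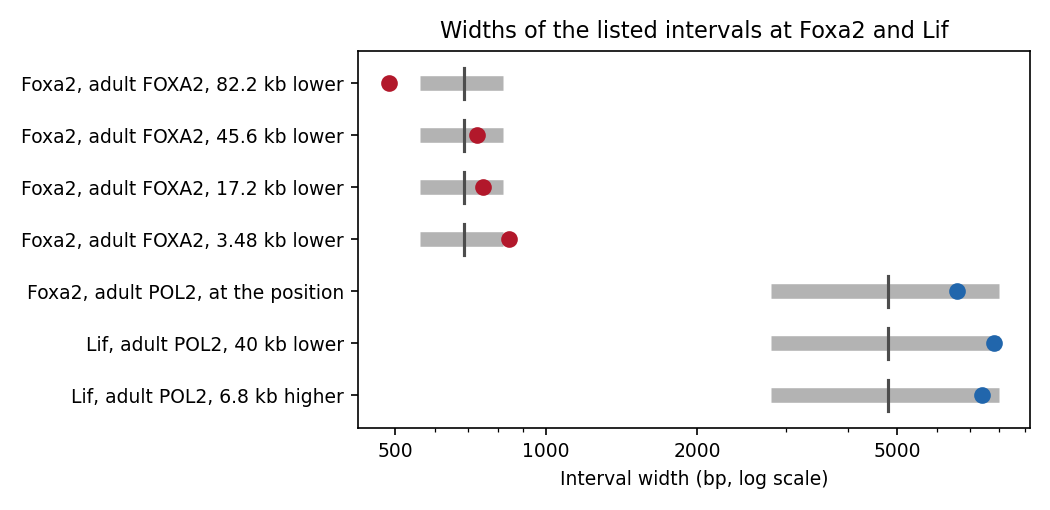
Widths in bp (horizontal axis, log scale) of the 7 intervals at Foxa2 and Lif, each a point labelled with its list and its distance from the stated position. Grey bars span the interquartile range of the whole list and the dark tick its median, and the 3 POL2 domains lie between the median and the upper quartile of the adult POL2 list.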

How the data were processed

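The 4 ChIP-seq lists used each came from 1 library. Per the submitters' processing notes reads were handled with BWA. Which caller and cut-off gave the intervals, whether input was subtracted and on which build are points not given in the sources used here. The deposited files hold, per the file headers, a chromosome, start and end for each interval, and no height, score or read count, so depth is unknown.

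Start and end were counted as inclusive. Overlap meant at least 1 bp. Windows and gene positions came from the selection rule, and the members and gene lists were chosen with earlier results of these data known. Named genes were Foxa2 and Lif, and other genes only as their neighbours. A planned count over other FOXA2 and LIF pathway genes was not run, since it needs an annotation of the files' build. Background windows ran side by side from the first to the last listed interval of each chromosome. Shares of whole lists have exact (Clopper-Pearson) 95% binomial intervals, which cover counting error only. Calculations were checked on made-up intervals with known overlaps. Promoters came from the RefSeq table of GRCm38.p6. Python 3.11.15, numpy 2.4.6, pandas 2.3.3, scipy 1.17.1 and matplotlib 3.10.9 were used. Alternatives were window size and place, centres, width, joined domains, overlap and the rounding of the gene positions.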

Additional observations from a re-analysis of the deposited data

How the results depend on the processing

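Of 101 alternatives for 26 values, 80 gave the value reported or one within 1.5 times of it, and 21 moved. Some of the 80 could not have moved. Where a value was 0, centres, a window of 50%, the 50% widest intervals or a stricter overlap could only give a count or cover of 0 again. The tally is therefore not a measure of how robust the values are. Windows, shifts and rounding of the position were partly chosen after the data were seen. The 4 adult FOXA2 intervals at Foxa2 were 7 in a window of 200% of the length and in one moved by 50% of its length to lower coordinates, and 0 in one moved to higher coordinates. At Lif, adult FOXA2 intervals were 0 as reported, 4 in the window of 200%, and 2 with the window moved to either side. Adult POL2 domains at Lif were 1 in a window of 50%, 4 in one of 200% and 1 with the window moved to higher coordinates, and PD12 POL2 domains were 1 in the window of 200% and in one moved to lower coordinates. That adult FOXA2 was not listed at Lif therefore holds for the window as set and not for the wider or moved ones, and that PD12 POL2 was not listed there does not hold in the window of 200% or the one moved lower. PD12 FOXA2 was not listed at Lif in any of these windows. With the position 5 kb lower or higher, the nearest adult FOXA2 interval was 0.677 or 8.48 kb from Foxa2, and the nearest adult POL2 domain 11.8 or 1.8 kb from Lif. The POL2 domain at Foxa2 was 4.0 kb away with the position 5 kb higher. By centres, POL2 was 2.3 kb from Foxa2 and 10.5 kb from Lif. In the 50% widest intervals, the nearest PD12 POL2 domain to Foxa2 was 640.0 kb away and the nearest adult FOXA2 interval to Lif 338.0 kb. Against PD12 POL2 domains, 0 of the 4 FOXA2 members at Foxa2 overlapped one, where 1 did with adult domains. Over the whole adult FOXA2 list 11.4% overlapped a PD12 domain, so 0 of 4 is near the background. No paired analysis was possible because there was 1 library per group. The best intervals by the authors' score could not be taken, as the lists have no score, and width stood in for it. Unknown depth and the unknown mix of cells limit every statement that an interval was not listed.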

Other observations

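These features were picked out once their values had been seen, and none was tested. The 4 adult FOXA2 intervals in the window of Foxa2 were the upper end of a longer row. Counting neighbours less than 100 kb apart, 8 adult FOXA2 intervals lay in a row of 208.0 kb, from chromosome 2, 147658080 to 147866518. They were 389 to 842 bp wide, with a median of 689.5 bp. Below the row the gap to the next adult FOXA2 interval was 128.0 kb, and above it, across the stated position of Foxa2, it was 367.0 kb. None of the 8 overlapped a PD12 FOXA2 interval, beside 5.65% of the whole adult FOXA2 list, and 1 of the 8, the one nearest to Foxa2, lay in an adult POL2 domain, beside 19.4% of the list. Both counts are near those shares. The 100 kb limit is above the list's median gap of 88.6 kb, so most neighbours in the list join by it. How many rows of 8 or more the list holds was not counted.

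The first adult FOXA2 interval past Foxa2 on the higher side, at 148233586 to 148234316, lay in POL2 domains of both stages, adult (4000 bp) and PD12 (3400 bp), and was not listed for FOXA2 at PD12. It differed in this from the FOXA2 interval nearest to Foxa2, which lay in a POL2 domain of the adult list alone. Over the whole adult FOXA2 list, 19.4% overlapped adult POL2 and 11.4% PD12 POL2, and the contrast of these 2 intervals was not tested.

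On either side of the window of Lif, adult FOXA2 intervals came as a pair, 3.7 kb apart on the lower side (626 and 666 bp wide) and 3.61 kb apart on the higher side (677 and 439 bp wide). These intervals were the nearest to the window on each side, and how many gaps in the list are this short was not counted. None of these 4 overlapped a POL2 domain of either stage or a PD12 FOXA2 interval, where 19.4% of the whole adult FOXA2 list overlapped adult POL2, 11.4% PD12 POL2 and 5.65% PD12 FOXA2, so these counts are near the background. Farther from Lif, the nearest PD12 FOXA2 interval on either side overlapped an adult one. The share of the PD12 FOXA2 list that does so was not counted, and the 5.65% above is a share of the adult list. In all, 586 adult FOXA2 intervals overlapped the PD12 list of 814, so such an overlap does not set these places apart. An adult FOXA2 interval of 1563 bp at 4998566 to 5000128 overlapped a PD12 one at 4998637 to 4998890, 839.0 kb from Lif on the higher side. An adult interval of 751 bp at 3298279 to 3299029 overlapped a PD12 one at 3298350 to 3298692, 861.0 kb away on the lower side.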
